A study of Mus musculus with 11 samples.

Results

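The mitochondrially encoded genes of the mouse were described here in 11 bulk RNA-seq libraries of ST-HSCs (short-term haematopoietic stem cells) sorted from bone marrow. Members were the rows whose Ensembl identifier maps to a symbol beginning with mt-, which gave 37 of the 53700 genes in the count table: 13 protein genes, 2 rRNA genes and 22 tRNA genes. The mice of all 4 groups bore a transplanted acute myeloid leukaemia with Flt3-ITD, an activating mutation of the FLT3 receptor kinase, and with a knockout of Tet2, an enzyme that oxidises methylated DNA. The hosts were CXCL12 KO (titled Cre_pos) or CXCL12 WT (titled Cre_neg), and received cytarabine, doxorubicin and quizartinib, or vehicle. Cytarabine and doxorubicin act on DNA synthesis and topoisomerase, and quizartinib inhibits FLT3. CXCL12 is a chemokine that marrow niche cells secrete. The groups were 3 KO treated libraries (257, 263 and 276), 3 WT treated libraries (252, 262 and 266), 2 KO vehicle libraries (249 and 275) and 3 WT vehicle libraries (240, 253 and 265). Within each group values are given in these orders. The strain was C57BL/6j, and the promoter that drives Cre, the age of the mice and whether each library came from a separate mouse are not given in the sources used here. The p-values therefore measure only the spread between these libraries. The design asks how the niche genotype and the treatment bear on gene expression in the sorted cells.

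The mitochondrial genome is a small circle that encodes core subunits of the respiratory chain and of ATP synthase, and the rRNAs and tRNAs with which mitochondria translate them. Both strands are transcribed as long RNAs that are cut mainly at the tRNAs into single messages, and every other protein involved is made from nuclear genes. Respiration of this kind is known as a dependence of acute myeloid leukaemia stem cells, while normal haematopoietic stem cells are known for low respiration. Stretches of mitochondrial DNA have also been copied into the nuclear genome during evolution, where they are annotated as pseudogenes.

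These copies bear on what can be counted, since a read that fits more than 1 place is set aside. In the GENCODE M21 transcripts (GRCm38) all 50-base words of mt-Co2 also occur in a pseudogene transcript. The first 60 bases of mt-Co2, which encodes a catalytic core subunit of cytochrome c oxidase, are shown with the opposite bases of its 2 pseudogenes, Gm28661 on chromosome 1 and Gm13341 on chromosome 2. Capitals mark the bases that differ from mt-Co2. The 2 tRNA genes with the most counts, mt-Tp (proline) and mt-Tq (glutamine), are shown whole. They had no such word in an annotated transcript of another gene.
mt-Co2: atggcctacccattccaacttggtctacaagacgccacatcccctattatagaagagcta
Gm28661: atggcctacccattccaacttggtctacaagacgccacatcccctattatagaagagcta
Gm13341: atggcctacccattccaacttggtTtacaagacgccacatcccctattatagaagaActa
mt-Tp: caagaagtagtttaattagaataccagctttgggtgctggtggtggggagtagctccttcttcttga
mt-Tq: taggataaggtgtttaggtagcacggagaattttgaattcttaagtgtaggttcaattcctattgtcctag

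The stretch of Gm28661 had 0 differences from mt-Co2 and that of Gm13341 had 2. Of the 13 protein genes, 5 shared more than 95% of their 50-base words with a pseudogene: mt-Co2 and mt-Co3 of cytochrome c oxidase, mt-Atp6 of ATP synthase, and mt-Nd3 and mt-Nd4l of complex I. The closest copies were Gm28661, Gm28437, Gm10925, Gm28438 and Gm10222 in that order of members. Together these 5 genes held 0.237% of all protein-gene counts summed over the 11 libraries, with per-gene sums between 56 (mt-Nd4l) and 20803 (mt-Nd3). A further 2 genes, mt-Co1 (51.1% shared) and mt-Nd4 (62.2% shared), held 38.7%. The 6 genes with less than 10% shared held 61.0%. Those are mt-Nd1, mt-Nd2, mt-Nd5, mt-Nd6, mt-Cytb and mt-Atp8. Levels of the 5 shared genes and their pseudogenes are therefore uncertain, and the pseudogenes carried counts of their own. These summed to 20506 for Gm10925, 18168 for Gm28437, 8725 for Gm28661, 2741 for Gm28438 and 298 for Gm10222. Those of Gm28438 ran from 52 to 1163 per library. The mt-Atp8 gene of ATP synthase shared no 50-base word with an annotated transcript of another gene. It summed to 200 counts, or 980.4 per kb of its length, against 59779 per kb for the almost fully shared mt-Nd3. Only annotated transcripts were searched, so copies elsewhere in the genome would be missed, and the reason for the low mt-Atp8 count was not tested.

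**Figure D1:**
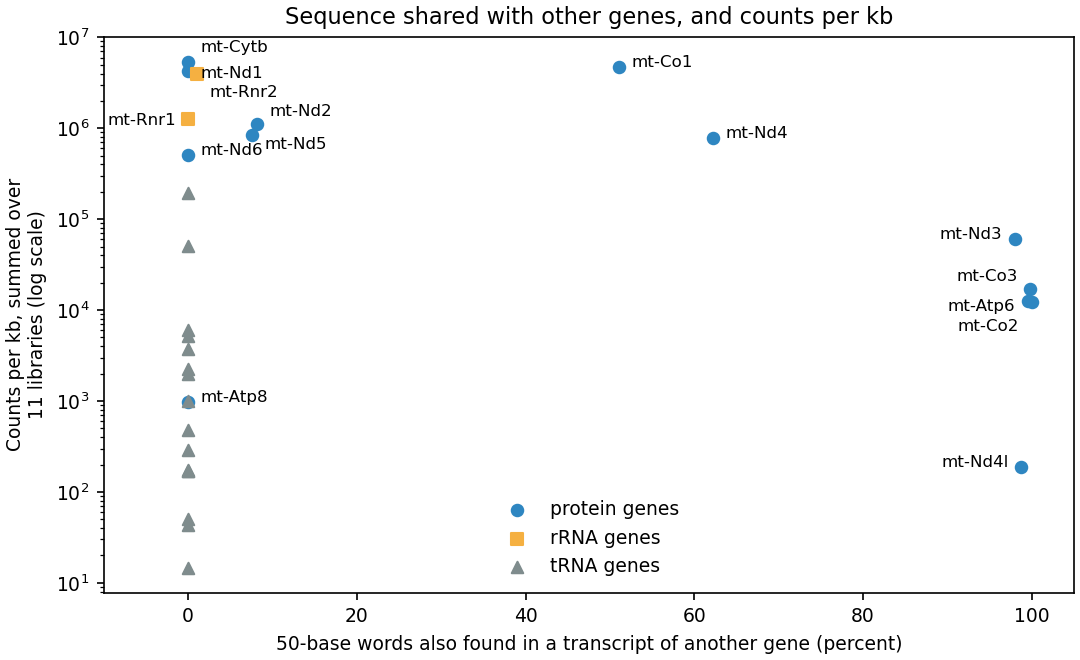
Percent of 50-base words of each mitochondrially encoded gene that also occur in a GENCODE M21 transcript of another gene (x axis), against its counts per kb of gene length summed over the 11 libraries (y axis, log scale). Each point is 1 gene, and the 6 tRNA genes at 0 are not drawn. The 5 protein genes over 95% shared lie between 189 (mt-Nd4l) and 59779 (mt-Nd3) counts per kb.

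Mitochondrially encoded RNA made up 2.86% to 27.4% of the gene counts of a library. In treated hosts its share was 13.8, 8.05 and 9.69% in KO libraries, against 3.55, 2.86 and 15.0% in WT libraries. In vehicle hosts it was 14.2 and 8.79% in KO libraries, against 27.4, 22.1 and 17.2% in WT libraries. The 3 WT vehicle libraries were higher than all other 8, and in treated hosts the niches overlapped, WT treated 266 standing above all KO treated and 252 and 262 below them. The group means were 10.5 ± 2.96% in KO treated, 7.12 ± 6.79% in WT treated, 11.5 ± 3.80% in KO vehicle and 22.2 ± 5.12% in WT vehicle libraries (SD, n = 3, 3, 2 and 3). No test was made of these sums. As a share of all reads in the table, summary lines included, KO treated 257 held 5.13%, so that it was the lowest of its group on this scale while it was the highest as a share of gene counts. WT treated 266 with 8.15% then exceeded WT vehicle 265 with 7.79%, and KO vehicle 249 with 8.03% did so too.

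**Figure D2:**
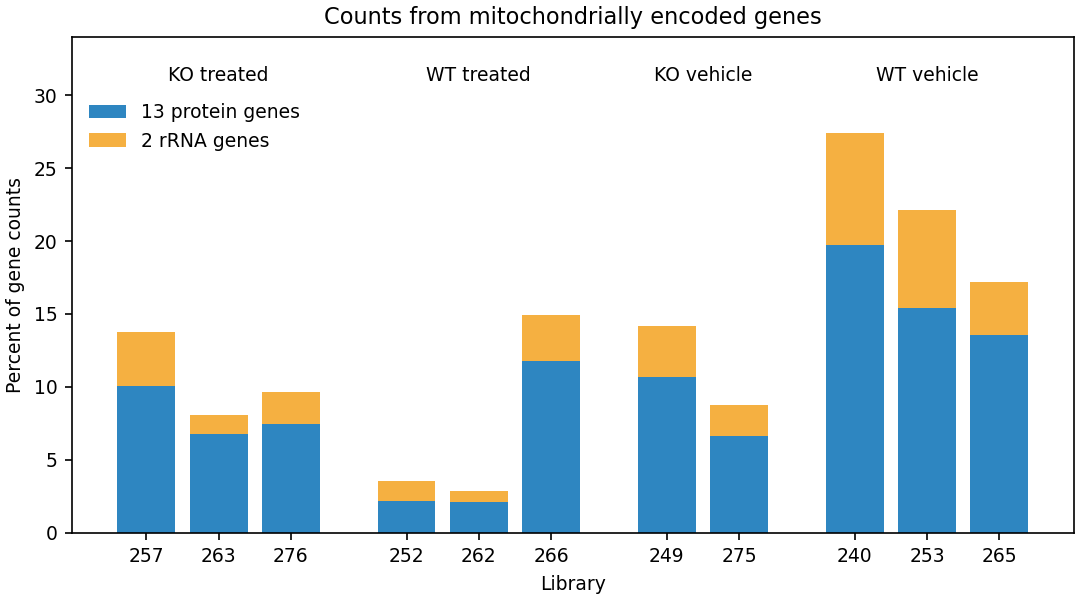
Percent of each library's gene counts (y axis) taken by the 13 protein genes (blue) and the 2 rRNA genes (orange), 1 bar per library. The 3 WT vehicle bars end between 17.2% and 27.4%, and within the WT treated group library 266 ends at 15.0%, against 2.86% and 3.55% for the others.

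Libraries differed in other measures as well. Depth ran from 8.13 to 31.1 M counts in genes per library, with no molecular identifiers. Genes with a count numbered 19080.0, 20444 and 19207 in KO treated, 22121, 20872 and 17207 in WT treated, 17301 and 18228 in KO vehicle and 17578, 13589 and 14206 in WT vehicle libraries, lowest in 253 and 265. Reads outside annotated genes were 30.4, 10.5 and 5.98% in KO treated, 10.1, 6.33 and 16.6% in WT treated, 18.8 and 9.41% in KO vehicle and 28.7, 18.0 and 28.8% in WT vehicle libraries, and were highest within the treated groups in 257 and 266, the libraries with the highest mitochondrial share there. The 12 granulocyte markers summed to 34899.8, 10667 and 24349 CPM in KO treated, 31218, 42447 and 156283 in WT treated, 39273 and 61981 in KO vehicle and 37647, 97155 and 58446 in WT vehicle libraries, with the highest value in 266. CPM are counts per M counts of the TMM-scaled library size. The 11 erythroid markers measured ranged from 23178 to 111481 CPM in KO treated, 512 to 805 in WT treated, 579.5 to 18218 in KO vehicle and 84.7 to 1278 in WT vehicle libraries. The 12 stem and progenitor markers, among them Kit, Cd34 and Flt3, summed to between 535 and 1736 CPM in the 11 libraries, below the granulocyte sum in each of them. No marker of these lists was at 0 in every library. No marker was called by edgeR. For KO against WT in treated hosts DESeq2 and limma voom both called 11 of 11 erythroid markers higher. They called 2 and 9 of 12 granulocyte markers lower, and limma voom called Mmp8 of that list higher. Of the 12 stem and progenitor markers limma voom called Gata2, Hlf and Kit higher and Cd48 lower, and DESeq2 called 0. Of all genes DESeq2 called 1.36% and limma voom 26.3% in this comparison. For KO against WT in vehicle hosts DESeq2 called 4 of 11 erythroid markers higher (Alas2, Epor, Hbb-bs and Trim10), against 1.24% of all genes. There limma voom called 0 of 16639 genes. The 8 B cell markers summed to 75.2, 110.2 and 152 CPM in WT treated, against 60.5, 52.3 and 54.8 CPM in WT vehicle libraries, and the 8 T and NK cell markers to 1021, 1143 and 1719 CPM in WT treated, against 484, 705 and 674 CPM in WT vehicle libraries. WT treated libraries were higher than WT vehicle libraries for both lists. Most of the T and NK sum was Nkg7, with 972, 1122 and 1698 CPM in WT treated and 449, 705 and 674 CPM in WT vehicle libraries. In KO treated libraries the B cell markers summed to 67.7, 40.0 and 41.3 CPM, and the T and NK markers to 1232, 295 and 488 CPM. In KO vehicle libraries they summed to 29.4 and 41.2 CPM, and to 836 and 841 CPM. In such bulk samples fewer cells of a type and less RNA per cell cannot be told apart, and the part of the marker levels in the mitochondrial values was not tested. Cxcl12 itself had between 0 and 223 counts, at 0 in 2 libraries (249 and 253). By the labels the knockout is in the hosts, and the labels do not say whether the sorted cells were of host or donor origin, so this count does not check the genotype.

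The rRNA genes mt-Rnr1 and mt-Rnr2 encode the 12S and 16S RNAs of the mitochondrial ribosome's small and large subunits. Together they held 3.74, 1.26 and 2.23% of gene counts in KO treated libraries, against 1.36, 0.780 and 3.19% in WT treated libraries. In vehicle hosts they held 3.46 and 2.18% in KO libraries, against 7.64, 6.71 and 3.63% in WT libraries. The KO vehicle values lay below all WT vehicle values, the gap between 249 and 265 being small. Within the mitochondrial counts the rRNA share ranged from 15.7% (KO treated 263) to 38.5% (WT treated 252). The other mitochondrial counts were almost all from protein genes, which averaged 8.09 ± 1.72% of gene counts in KO treated, 5.33 ± 5.55% in WT treated, 8.65 ± 2.89% in KO vehicle and 16.2 ± 3.19% in WT vehicle libraries (SD). Both rRNAs are cut from the same heavy-strand RNA, and their ratio varied between libraries. Per kb, the 16S to 12S ratio of counts was 2.52, 3.18 and 4.25 in KO treated, 2.69, 2.11 and 2.21 in WT treated, 2.92 and 2.85 in KO vehicle and 3.70, 3.98 and 3.51 in WT vehicle libraries. Every WT treated ratio lay below every WT vehicle ratio, and both KO vehicle ratios lay below the WT vehicle ratios, while KO treated libraries ranged from below the vehicle groups to above them.

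Complex I, NADH dehydrogenase, takes 7 mitochondrially encoded subunits, which held 24.6% to 30.7% of the mitochondrial counts. Of them mt-Nd1 had the most counts per length. The countable sequence of mt-Nd3, mt-Nd4l and mt-Nd4 is limited by their copies, so this ranks counts and not RNA levels. For mt-Nd1 there were 20832, 11855 and 14385 counts per kb and M gene counts in KO treated and 4567, 3939 and 24822 in WT treated libraries. On the same scale mt-Nd5, which lies farther along the heavy-strand RNA, had 3062, 2777 and 2999 in KO treated and 724, 596 and 3754 in WT treated libraries. In every library mt-Nd5 was therefore below mt-Nd1. The mt-Nd5 to mt-Nd1 ratio per kb was 0.147, 0.234 and 0.208 in KO treated, 0.158, 0.151 and 0.151 in WT treated, 0.218 and 0.225 in KO vehicle and 0.233, 0.229 and 0.239 in WT vehicle libraries. The WT treated values all lay below the WT vehicle values and below both KO vehicle values, and 266 had the low ratio of its group although its mitochondrial share was close to that of KO vehicle 249. Of the KO treated libraries, 257 lay below every other library and 263 and 276 lay near the vehicle libraries. The complex I gene mt-Nd2 had 7807, 1872 and 2884 CPM in KO treated and 1361, 945 and 8203 CPM in WT treated libraries, and 4620.2 and 3009 CPM in KO vehicle and 10901, 12279 and 6839 CPM in WT vehicle libraries. Both niches thus had 1 treated library, 257 or 266, within the range of the WT vehicle libraries. The only protein gene on the light strand, mt-Nd6, had counts of 0.744% to 1.75% of those of the 12 heavy-strand protein genes. Its level was 1596, 459 and 538 CPM in KO treated and 360.5, 192 and 1631 CPM in WT treated libraries, and 1089 and 673 CPM in KO vehicle and 3124, 2824 and 1378 CPM in WT vehicle libraries, with 266 and 257 again above WT vehicle 265. The library kits do not mark strand, so its counts and those of heavy-strand RNA opposite to it cannot be told apart.

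Complex III has 1 mitochondrially encoded subunit, mt-Cytb (cytochrome b), and it held 17.5% to 23.6% of the mitochondrial counts. The mt-Co1 gene of complex IV, cytochrome c oxidase, held 19.3% to 32.6%, and mt-Rnr2 held 13.2% to 31.4%. The other complex IV genes, mt-Co2 and mt-Co3, whose countable sequence is limited by their copies, held small shares. Within the mitochondrial counts mt-Co3 held 0.0693, 0.0509 and 0.0458% in KO treated and 0.0469, 0.0505 and 0.0554% in WT treated libraries, against 0.0361 and 0.0369% in KO vehicle and 0.0409, 0.0343 and 0.0338% in WT vehicle libraries. Likewise mt-Co2 held 0.0437, 0.0326 and 0.0262% in KO treated and 0.0320, 0.0371 and 0.0339% in WT treated libraries, against 0.0231 and 0.0226% in KO vehicle and 0.0249, 0.0231 and 0.0223% in WT vehicle libraries. For both genes all 6 treated libraries were above all 5 vehicle libraries, while the shares of the other 13 protein and rRNA genes overlapped between treated and vehicle libraries. Complex V, ATP synthase, has mt-Atp6 and mt-Atp8, subunits of its membrane part, which held 0.0235% to 0.0415% together, and their share overlapped between treated and vehicle libraries. The counts of mt-Atp6 gave 49.4, 20.2 and 22.0 CPM in KO treated and 11.1, 7.90 and 78.5 CPM in WT treated libraries, and 39.0 and 20.5 CPM in KO vehicle and 81.6, 70.0 and 42.7 CPM in WT vehicle libraries. Here too 257 and 266 were the highest treated libraries, 266 above 265 and 253.

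**Figure D3:**
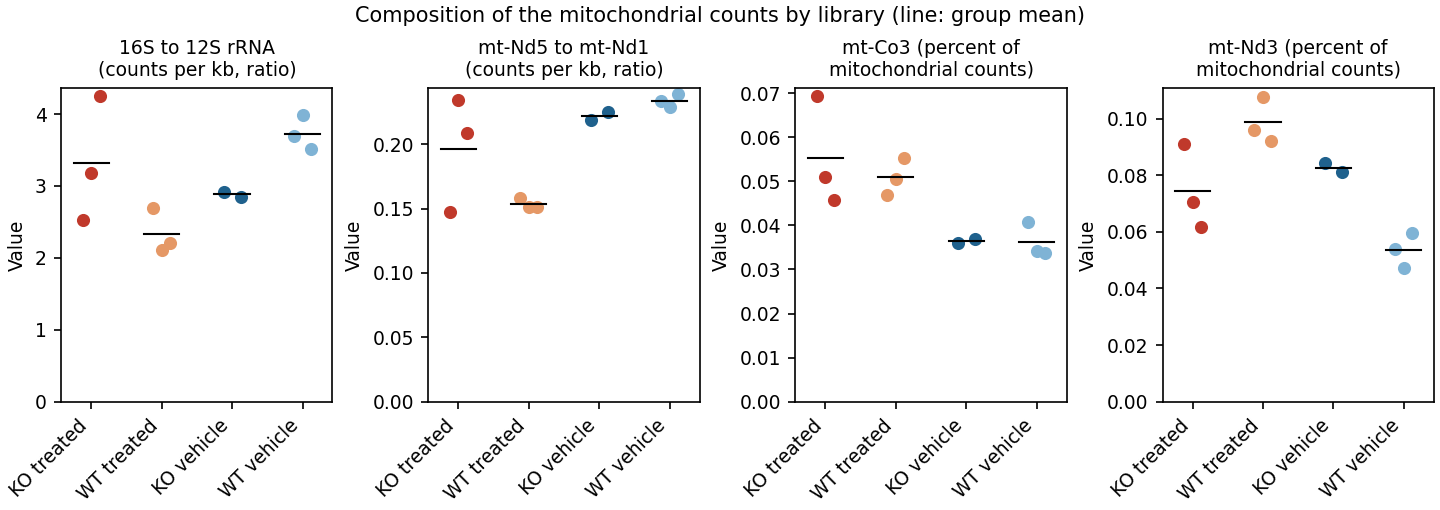
Measures of composition within the mitochondrial counts (y axes, from 0), by group: the 16S to 12S and the mt-Nd5 to mt-Nd1 ratio of counts per kb, and mt-Co3 and mt-Nd3 as percent of mitochondrial counts. Each point is 1 library and each line a group mean. The mt-Nd5 to mt-Nd1 ratio is 0.151 to 0.158 in WT treated and 0.229 to 0.239 in WT vehicle libraries.

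The 22 tRNA genes held at most 0.0152% of gene counts. Their 17956 counts, summed over the 11 libraries, came for 97.5% from the 8 genes on the light strand, and mt-Tp and mt-Tq alone gave 71.8% and 20.0%. Another 6 tRNA genes (mt-Tw, mt-Tk, mt-Tg, mt-Ty, mt-Td and mt-Th) had 0 counts in every library, and 7 (mt-Tr, mt-Ts1, mt-Ts2, mt-Tl2, mt-Tn, mt-Tv and mt-Ti) had sums of 1 to 30. The heavy-strand genes with the most counts were mt-Tl1 (leucine), which lies between the 16S rRNA and mt-Nd1, with 167, and mt-Tt (threonine), which follows mt-Cytb, with 131. So 31 of the 37 members had a count in some library. The kit primes from poly(A) tails, which mature tRNAs lack, so these counts cannot be read as levels of mature tRNA. As the library kits do not mark strand, counts at a tRNA gene and those of RNA from the opposite strand cannot be told apart. The split by strand is thus one of gene position. In treated hosts mt-Tp stood at 127, 17.8 and 25.9 CPM in KO libraries, against 17.1, 13.4 and 133 CPM in WT libraries. In vehicle hosts it stood at 66.8 and 28.8 CPM in KO libraries, against 95.8, 64.3 and 70.4 CPM in WT libraries. The highest values were those of 257 and 266, and the groups overlapped in each comparison, the KO and WT vehicle libraries only through 249 and 253. For mt-Tq the values were 22.1, 4.54 and 8.48 CPM in KO treated and 3.90, 1.79 and 34.3 CPM in WT treated libraries, and 11.9 and 6.34 CPM in KO vehicle and 49.0, 36.9 and 9.73 CPM in WT vehicle libraries, again with overlap in each pair.

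Per gene, 23 of the 37 members passed the filter on low counts, namely the 13 protein genes, both rRNA genes and 8 tRNA genes (mt-Ta, mt-Tc, mt-Te, mt-Tl1, mt-Tm, mt-Tp, mt-Tq and mt-Tt). Fold changes come from edgeR's quasi-likelihood test, and p-values were adjusted by Benjamini-Hochberg over 16639 genes with 0.05 as the threshold. No member passed in any of the 4 group comparisons, in the interaction or in the mean effects. The same was true of all genes in this fit, with 0% of 16639 genes called in each comparison, and with unadjusted p-values under 0.05 for 612 genes (treated against vehicle in the KO niche) to 3035 genes (treated against vehicle in the WT niche). Other tools did call genes. DESeq2 called 6.42% of all genes for treated against vehicle in the WT niche (499 higher and 570 lower), 1.36% for KO against WT in treated hosts and 1.24% in vehicle hosts. For KO against WT in treated hosts limma voom called 26.3% (2368 higher and 2007 lower). None of these was a member. Counts of fold changes and of groups that do not overlap are over the 15 protein and rRNA genes, and counts of p-values are over the 23 members. The 15 are not 15 separate observations, since 257, 266 and 249 each had the highest CPM of their own group for 15 of 15 genes.

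In vehicle hosts the fitted level of every mitochondrial message and rRNA was lower in the KO than in the WT niche, and none passed the threshold. The 16S rRNA mt-Rnr2 stood at 25185 and 16339 CPM in KO vehicle libraries, against 72032, 69249 and 30966 CPM in WT vehicle libraries, and its log2 fold change was -1.47 ± 0.85 (SE, adjusted p = 0.769, edgeR). For mt-Co1 the values were 28666 and 21295 CPM in KO and 72174, 56594 and 48739 CPM in WT vehicle libraries (log2 fold change -1.24 ± 0.86, edgeR adjusted p = 0.822). For mt-Cytb they were 26971 and 16084 CPM in KO and 63904, 53056 and 36218 CPM in WT vehicle libraries (log2 fold change -1.25 ± 0.89, edgeR adjusted p = 0.832). Both KO libraries lay below all 3 WT libraries for each of these genes. That was so for 13 of the 15 genes, the groups overlapping for mt-Atp8 and mt-Nd3. Over all 16639 genes, 7.47% had both KO libraries below the 3 WT libraries. The 12S rRNA mt-Rnr1 was among the closest, with 5214 and 3463 CPM in KO and 11761, 10499 and 5330.3 CPM in WT vehicle libraries.

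All 15 fold changes were below 0, against 50.0% of all genes tested, from -1.52 (mt-Atp8) to -0.61 (mt-Nd3), with a median of -1.24 against 0.00 over all genes. The smallest adjusted p was 0.769. At an unadjusted p under 0.05 there were 0 members in edgeR, 1 in DESeq2 (mt-Rnr2) and 1 in limma voom (mt-Co2), against 6.78%, 8.78% and 7.57% of all genes in these tools. There were 10 of 22 in an edgeR fit of the vehicle libraries alone, against 516 of 13878 genes. There were 7 of 23 without WT treated 266, against 1049 of 16462 genes. In either fit 0 genes were called, members or others. The median was -0.89 without KO vehicle 275 and -1.62 without 249. In a fit that adds each library's percentage of out-of-gene reads as a covariate it was -0.53.

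In the WT niche the fitted level of every mitochondrial message and rRNA was lower in treated than in vehicle libraries, again with no gene past the threshold. The mt-Nd5 gene stood at 1268, 991 and 8823 CPM in WT treated libraries, against 17089, 14852 and 10794 CPM in WT vehicle libraries, with a log2 fold change of -1.95 ± 0.74 (SE) and the smallest adjusted p of the members, 0.216 (edgeR). For mt-Rnr2 the values were 10707, 5536 and 32315 CPM in WT treated and 72032, 69249 and 30966 CPM in WT vehicle libraries (log2 fold change -1.83 ± 0.74, edgeR adjusted p = 0.234). For mt-Nd4 they were 1154, 1109 and 7081 CPM in WT treated and 10706, 9173 and 7632 CPM in WT vehicle libraries (log2 fold change -1.56 ± 0.69, edgeR adjusted p = 0.263). The groups did not overlap for mt-Nd5 and mt-Nd4, while 266 lay within the WT vehicle range for mt-Rnr2. In all, 3 of the 15 genes (mt-Nd4, mt-Nd4l and mt-Nd5) had every WT treated library below every WT vehicle library, against 10.1% of all genes. For mt-Cytb, library 266 with 44808 CPM stood above WT vehicle 265 with 36218 CPM, and 252 and 262 stood at 5951 and 5669 CPM.

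Of the 15 fold changes 15 were below 0, against 47.0% of all genes, from -2.62 (mt-Nd4l, which had 0 counts in 252) to -0.71 (mt-Nd3), and their median was -1.44 against 0.09 over all genes. Unadjusted p-values were under 0.05 for 4 of 23 members in edgeR (mt-Nd4, mt-Nd5, mt-Nd6 and mt-Rnr2), against 18.2% of all genes. They were for 8 in DESeq2, against 21.4% of all genes, and for 20 in limma voom, which weights libraries by quality, against 18.2%. No member passed in any of the 3 tools after adjustment. In this comparison edgeR and limma voom called 0 of 16639 genes, and DESeq2 called 6.42%. The size depended on 1 library: without WT treated 266 the median was -3.02, and without 252 or 262 it was -1.07 or -1.01. With the covariate it was -0.79, in a fit that called 970 genes higher and 1130 lower, none of them a member.

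In the KO niche treated and vehicle libraries overlapped for all 15 genes, while 10.1% of all genes had every treated library lower and 12.3% every one higher. For mt-Co1 the KO treated libraries had 38779, 19629 and 28116 CPM and the KO vehicle libraries 28666 and 21295 CPM. For mt-Cytb the KO treated libraries had 33538, 14209.8 and 19189 CPM and the KO vehicle libraries 26971 and 16084 CPM. In both genes 257 was the highest and 263 the lowest of the treated libraries, on either side of the vehicle pair. Fold changes ran from -0.27 (mt-Nd5) to 0.74 (mt-Co3) with 7 below 0, against 43.7% of all genes, and a median of 0.00. No member had an unadjusted p under 0.05 in edgeR, DESeq2 or limma voom, against 3.68%, 5.73% and 13.3% of all genes in these tools. The median depended on the setting. It was -0.62 without KO treated 257, with 15 of 15 below 0, and 0.44 without KO vehicle 249, with 0 of 15 below 0. In limma voom it was -0.74, with 15 of 15 below 0.

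Between the niches in treated hosts the groups overlapped for all 15 genes, while 9.56% of all genes had every KO library lower and 9.71% every one higher. The mt-Rnr2 values were 35369, 7959.6 and 19063 CPM in KO treated and 10707, 5536 and 32315 CPM in WT treated libraries. For mt-Nd1 they were 23354, 8495 and 13458 CPM in KO treated and 4199.7, 3441 and 30607 CPM in WT treated libraries. All 3 KO treated libraries lay between the low pair 252 and 262 and the high library 266 for mt-Nd1. Over the 15 genes the median log2 fold change was 0.25 with 3 below 0, against 46.1% of all genes, and their smallest adjusted p was 0.798. No member had an unadjusted p under 0.05 in edgeR, where 10.6% of all genes did, or in DESeq2, where 12.6% did. In limma voom 2 of 23 members did (mt-Co1 and mt-Nd5), below the 38.4% of all genes. The median was 1.86 without 266. In that edgeR fit 13 members had an unadjusted p under 0.05, against 777 of 16462 genes, and 0 genes were called, members or others. The median was -0.29 without 257, -0.13 without 252 and -0.19 without 262.

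The interaction asks whether the niche difference depended on treatment. Its 15 log2 values ran from 0.67 (mt-Nd3) to 2.43 (mt-Nd4l), none below 0, against 46.4% of all genes, with a median of 1.65, and the smallest adjusted p was 0.792 (edgeR). Unadjusted p-values were under 0.05 for 0 members in edgeR, 0 in DESeq2 and 6 of 23 in limma voom, against 6.31%, 7.96% and 16.1% of all genes in these tools. The median was 3.12 without WT treated 266 and 0.65 with the covariate. Averaged over the niches, treatment gave a median of -0.69, with 15 of 15 below 0 against 42.7% of all genes, and averaged over treatments, the KO niche gave -0.45, with 14 below 0 against 48.9%. No member had an unadjusted p under 0.05 for either mean effect in edgeR. For treatment DESeq2 had 1 (mt-Nd5) and limma voom 22 of 23, and the shares of all genes were 6.05% lower and 9.98% higher in edgeR, and in either direction 19.1% in DESeq2 and 18.5% in limma voom. For the niche neither tool had any, against 10.9% in edgeR, 12.6% in DESeq2 and 26.4% in limma voom. Without WT treated 266 the niche median was 0.30, with 3 of 15 below 0. These contrasts share libraries with those above, and the WT vehicle libraries stand in both comparisons with the low medians.

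**Figure D4:**
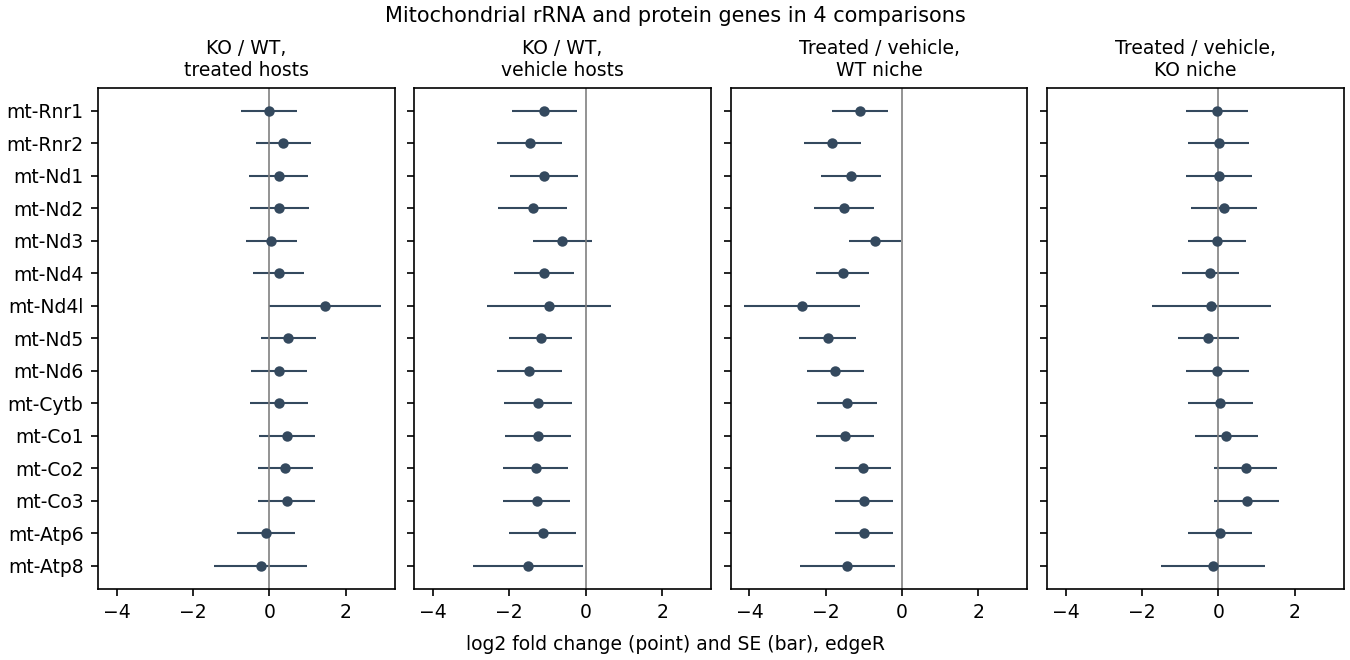
Log2 fold change (x axis) of the 2 rRNA and 13 protein genes (rows) in the 4 group comparisons, as a point with a bar of 1 SE on each side (edgeR). All 15 points lie below 0 for KO against WT in vehicle hosts (median -1.24) and for treated against vehicle in the WT niche (median -1.44), and for treated against vehicle in the KO niche 7 lie below 0 (median 0.00).

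The nuclear genome supplies the other subunits of the same complexes, and 24 of these were measured and tested. In the WT niche their treated to vehicle fold changes had a median of 1.03 against 0.09 over all genes. Of the 24, 20 were above 0 and 4 below, against 47.0% of all genes below 0, and edgeR called 0. Their CPM summed to 10923, 11509.9 and 11065 in WT treated libraries, against 6293, 8159 and 6886 in WT vehicle libraries. All 3 WT treated sums were above all WT vehicle sums, and 266 did not stand apart as it did for the mitochondrial genes. KO treated libraries summed to 10577, 5615 and 7039 and KO vehicle libraries to 7544 and 7515, where 257 lay near the WT treated libraries. The complex V gene Atp5c1, which encodes the gamma subunit of the rotor, had 693, 763 and 699.7 CPM in WT treated and 352, 398 and 287 CPM in WT vehicle libraries (log2 fold change 1.05 ± 0.30, edgeR adjusted p = 0.173). The complex I subunit Ndufa9 had 227, 260.3 and 251 CPM in WT treated and 122, 147 and 95.3 CPM in WT vehicle libraries (log2 fold change 1.02 ± 0.30, edgeR adjusted p = 0.174). Neither gene's groups overlapped, which was so in this direction for 17.5% of all genes. DESeq2 called both genes and no other of the 24 in that comparison, where it called 6.42% of all genes. Between niches the partners' median was -0.65 in treated hosts and 0.00 in vehicle hosts, against 0.10 and 0.00 over all genes. Of the 24, 23 and 12 were below 0, against 46.1% and 50.0% of all genes. In treated hosts limma voom called 20 of the 24 lower in the KO niche, and DESeq2 called 0. Of all genes these tools called 26.3% and 1.36% there, in either direction. For treated against vehicle in the KO niche the partners' median was 0.32.

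**Figure D5:**
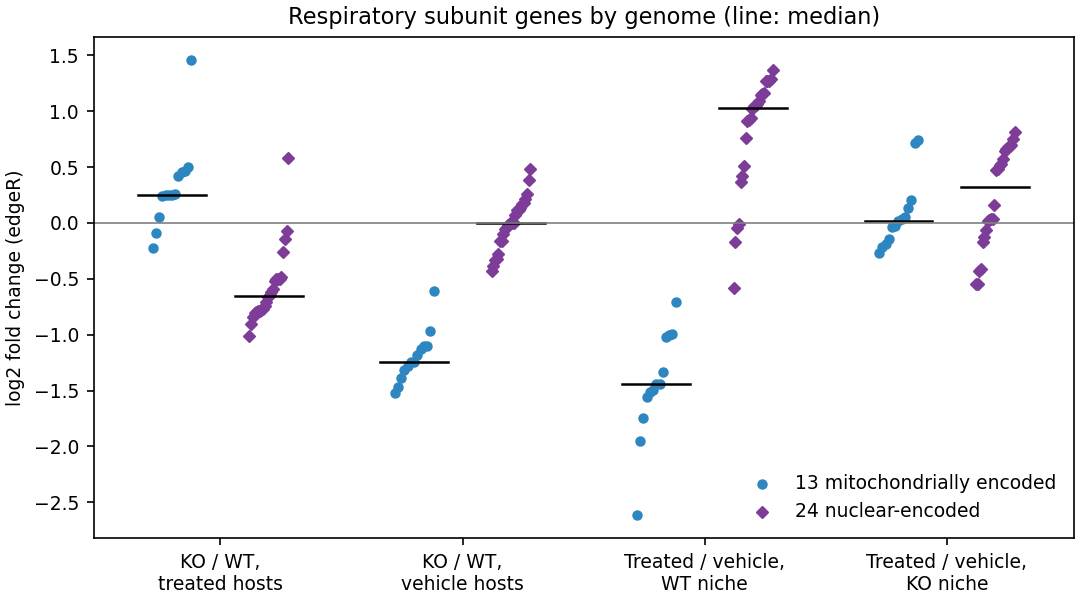
Log2 fold changes (y axis, edgeR) of the 13 mitochondrially encoded (blue circles) and 24 nuclear-encoded subunit genes (purple diamonds) in the 4 comparisons, each sorted by value, with a line at the median. In the WT niche the 13 mitochondrial genes lie below 0 and 20 of the 24 nuclear genes above 0, with no gene past the threshold in edgeR.

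Genes that serve the mitochondrial genome had none called by edgeR in any comparison. In the WT niche, of the 58 genes tested in the 4 lists, DESeq2 called Mterf1a and Rnaseh1 higher in treated libraries. It called Polg, Ptcd1 and Sirt1 lower, while it called 6.42% of all genes in either direction. In treated hosts limma voom called 9 of the 58 higher and 9 lower in the KO niche, Polrmt, Polg and Nrf1 among the higher. Of all genes it called 26.3% in that comparison, 2368 higher and 2007 lower. Of the transcription list, 11 of 11 genes were tested. Tfam, which packs mitochondrial DNA and starts its transcription, had 64.6, 83.9 and 64.2 CPM in WT treated and 37.1, 48.1 and 17.4 CPM in WT vehicle libraries, groups that did not overlap, as for 17.5% of all genes (log2 fold change 1.05 ± 0.37, edgeR adjusted p = 0.192). Polrmt, the mitochondrial RNA polymerase, had 9.65, 10.2 and 4.75 CPM in WT treated and 15.2, 3.79 and 73.2 CPM in WT vehicle libraries (log2 fold change -1.90 ± 0.89, edgeR adjusted p = 0.282), and WT vehicle 253 was lower than all 3 treated libraries. Polg, the polymerase that copies mitochondrial DNA, had 6.90, 6.39 and 13.5 CPM in WT treated and 25.5, 62.9 and 39.0 CPM in WT vehicle libraries (log2 fold change -2.25 ± 0.62, edgeR adjusted p = 0.173). For Polg the groups did not overlap, as for 10.1% of all genes in this direction. In KO libraries Polg had 7.12, 28.7 and 32.9 CPM when treated and 32.0 and 63.8 CPM with vehicle, and 257 stood at the WT treated level. The KO to WT fold changes in treated hosts were -0.49 for Tfam, 1.58 for Polrmt and 1.36 for Polg on the log2 scale.

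By list, the median treated to vehicle log2 fold change in the WT niche was 0.68 over the 11 transcription genes, 0.04 over 13 genes of DNA replication and upkeep, -0.09 over 24 genes of RNA processing and -0.62 over 10 regulators of mitochondrial biogenesis. KO against WT in treated hosts gave -0.46, -0.02, 0.28 and 0.87 for these lists in the same order. KO against WT in vehicle hosts gave 0.46, -0.24, 0.14 and -0.72. Over all genes the median was 0.09, 0.10 and 0.00 in these comparisons, in the order given. In treated hosts all 10 biogenesis regulators had a KO to WT log2 fold change above 0, and edgeR called none. Of all genes 46.1% were below 0 there. Among the 10 was Nrf1, a transcription factor for nuclear respiratory genes (0.90 ± 0.38, edgeR adjusted p = 0.449). In the RNA processing list Ptcd1, a mitochondrial RNA-binding protein, had the smallest p for treatment in the WT niche (log2 fold change -1.73 ± 0.61, edgeR adjusted p = 0.195).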

How the data were processed

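RNA-seq of sorted ST-HSCs was deposited by the authors as 1 table of raw read counts for 11 libraries, whole numbers with no scaling, in which 53700 rows are Ensembl genes and 5 are summary lines. Per the labels' protocols, RNA was taken with an RNeasy Plus Micro kit and made into libraries with the SMARTer Ultra Low Input kit (v4) and Nextera XT. Per the submitters' processing notes the build was GRCm39, and the tools were STAR 2.7.9a, HTSeq 0.6.7, Trim Galore 0.6.7, bcl2fastq and DESeq2. The annotation release, read length, strand setting and filters are not given in the sources used here.

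Identifiers were matched without version to GENCODE M21 (GRCm38), which gave a symbol for 52093 genes. The summary lines stayed out of library sizes and tests, and are given as library measures. Depth was 8.13 to 31.1 M counts in genes. Counts have no molecular identifiers, so counting precision understates the error. Shares use all counts in genes as the denominator. Words of 50 bases of each member were looked up in all other GENCODE M21 transcripts on both strands.

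In R 4.3.3, edgeR 4.0.16 kept 16639 genes with filterByExpr on the 4 groups, scaled with TMM and fitted 1 quasi-likelihood model with the robust option (biological coefficient of variation 0.783, 7 residual degrees of freedom). There were 7 contrasts, each adjusted by Benjamini-Hochberg with 0.05 as the threshold. Each SE was derived from the fold change and its F statistic. The 10 alternatives were DESeq2 size factors, scaling from the other genes, the DESeq2 1.42.0 Wald test, limma 3.58.1 voom with quality weights, no filter, a mean CPM of 10, no robust option, only the groups compared, out-of-gene reads as a covariate, and leaving out 253 and 265 together. Each of the 11 libraries was also left out in turn. The edgeR fit was checked on simulated counts for KO against WT in treated hosts, with 100 genes changed 4-fold and 100 changed 16-fold. It called 19% of the former and 74% of the latter, with 2 false calls. A lack of calls therefore does not show a lack of change.

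Members and gene lists were chosen with earlier results of these data known. Members with fold changes in the text are the 15 protein and rRNA genes in the 2 comparisons with the lowest medians, and mt-Co1, mt-Cytb, mt-Rnr1, mt-Rnr2 and the extremes in the others. From the lists, genes were named by the smallest p or by their role, after their values were seen.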

Additional observations from a re-analysis of the deposited data

Results flagged for a closer look

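The share of mt-Nd3, a complex I subunit, within the mitochondrial counts differed between the niches in opposite directions under the 2 treatments. It was 0.0909, 0.0706 and 0.0617% in KO treated libraries, all below the 0.0961, 0.108 and 0.0922% of WT treated libraries. It was 0.0842 and 0.0811% in KO vehicle libraries, all above the 0.0538, 0.0472 and 0.0597% of WT vehicle libraries. The mean difference of KO minus WT in treated hosts was -0.0243 percentage points. The difference between the treatments was not tested. This was the only measure flagged in a screen of the CPM of the 23 members and of the shares and ratios of counts. No correction was made for the number of measures screened. The gene shared 293 of its 299 words of 50 bases with the pseudogene Gm28438, whose own counts ran from 52 to 1163 per library. The part of these copies was not tested. Groups of 2 and 3 libraries were too small for a check of single outlying values.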

How the results depend on the processing

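No member was called in any of the 7 contrasts in the edgeR fit or in 21 other settings (0 of 3465 fits of a member). In many of these settings, the main edgeR fit among them, no gene at all was called. There the lack of called members is not particular to them. Calls over all genes are given below for some of the settings that had them. Leaving out 1 library each kept direction and call in 615 of the values for named members and reversed 33. The other settings kept 550 and reversed 19. The medians of KO against WT in vehicle hosts and of treated against vehicle in the WT niche were below 0 in every setting run. The median over all genes moved by over 0.1 in some of these settings, and fold changes are not corrected for that. The cause of each change listed here was not tested.

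For treated against vehicle in the WT niche the median was -2.55 in limma voom. With out-of-gene reads as a covariate the interaction median was 0.65, and mt-Nd3 reversed to 0.17 for KO against WT in vehicle hosts, 0.12 for treated against vehicle in the WT niche and -0.41 in the interaction. There mt-Rnr1 reversed to -0.13, and mt-Co3 to 0.14 for mean treatment. For KO against WT in treated hosts mt-Rnr1 was 0.0090 with DESeq2 size factors, 0.0090 in DESeq2 and 0.064 with scaling from other genes. For treated against vehicle in the KO niche, limma voom gave -0.16 for mt-Co1, -0.044 for mt-Co3, -0.38 for mt-Cytb and -0.95 for mt-Rnr2. In that comparison the covariate gave -0.0492 for mt-Cytb and -0.17 for mt-Rnr2, scaling from other genes gave -0.028 for mt-Rnr2, and mt-Rnr1 was 0.035 with DESeq2 size factors and in DESeq2, 0.039 with only the groups compared and 0.060 at a mean CPM of 10.

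As a percentage of all reads, mitochondrial RNA averaged 5.49% in KO treated, 7.03% in KO vehicle and 10.3% in WT vehicle libraries. Protein genes averaged 4.28%, 5.29% and 7.53% in these groups. The rRNAs averaged 1.73% in KO vehicle and 2.80% in WT vehicle libraries, and tRNA genes 0.00510% in WT vehicle libraries.

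With 1 library left out, the median ranged from -0.29 to 1.86 for KO against WT in treated hosts, from -3.02 to -1.01 for treated against vehicle in the WT niche and from 0.92 to 3.12 for the interaction. In treated hosts KO against WT ranged from -1.32 to 0.85 for mt-Atp8, -0.19 to 1.94 for mt-Cytb, -1.02 to 1.08 for mt-Rnr1 and -0.26 to 1.36 for mt-Rnr2. Treated against vehicle in the KO niche ranged from -0.067 to 0.45 for mt-Co1, -0.0076 to 1.10 for mt-Co3, -0.37 to 0.47 for mt-Cytb, -0.63 to 0.18 for mt-Nd5, -1.04 to 0.41 for mt-Rnr1 and -0.62 to 0.43 for mt-Rnr2. The interaction ranged from -0.043 to 2.05 for mt-Nd3, the mean niche effect from -0.61 to 0.44 for mt-Co1, -0.72 to 0.35 for mt-Cytb and -0.11 to 1.13 for mt-Nd4l, and mean treatment from -0.95 to 0.089 for mt-Co3.

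Over all genes, counts of calls moved away from 0 in some settings. DESeq2 called 201 higher and 25 lower for KO against WT in treated hosts and 165 and 41 in vehicle hosts, and 20 and 3 for treated against vehicle in the KO niche. Without a filter treated against vehicle in the WT niche had 107 higher and 108 lower. With out-of-gene reads as a covariate that comparison had 970 higher and 1130 lower, and mean treatment had 711 and 806. Without KO treated 257, KO against WT in treated hosts had 716 higher and 797 lower, and without WT vehicle 240 it had 85 higher and 0 lower in vehicle hosts. No paired analysis was possible because the library numbers differ between the groups and pair no libraries.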
